A study of Mus musculus with 22 samples.

Results

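Astrocytes, the star-shaped glial cells that fill the space between neurons, were followed through 10 genes that are widely used to mark them: Gfap, Aqp4, Aldh1l1, Slc1a2, Slc1a3, S100b, Gja1, Aldoc, Fgfr3 and Agt. The genes were taken as a named list. Each was read from its RefSeq-identified probe with the highest median signal over all arrays, which gave 10 genes of the 20129 gene symbols that the array names. All 10 were well above background in every fraction. The measurements came from Transcriptome Tomography, which cuts a whole brain from end to end, collects consecutive slices as a fraction and hybridises its RNA to a microarray.

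Fractions came from 3 mice, all males of the inbred strain C57BL/6J, with no treatment or genetic change named in the labels. Each mouse gave 1 series, with 10 fractions for the coronal, 6 for the horizontal and 6 for the sagittal direction of cutting. On age the labels differ, with postnatal day 7 in the titles and 3 days in the field for age. The paper lists this series as the brain at 7 days. By the labels, 100 slices of 5 µm made a slab. Coronal fraction 10 pooled slabs 10 and 11, sagittal fraction 1 slabs 1 and 2, and sagittal fraction 6 slabs 7 to 9. Each fraction was measured on 1 array, so no value has a replicate, the number of arrays limits the precision, and the series, the mouse and the cutting direction cannot be told apart. The labels do not say at which end of the brain a series began.

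Astrocytes take up glutamate and potassium, buffer water, pass metabolites to neurons and cover synapses and blood vessels with their processes. They are joined into networks by gap junctions. Their marker genes do not all run together from region to region, and astrocytes of the brainstem, the cerebellum and the forebrain are known to differ in what they express. In the first weeks after birth these cells are still multiplying and maturing. In whole-tissue RNA, fewer cells of a type and less RNA per cell cannot be told apart.

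The stretch of DNA just before a gene's start holds part of its control, and the RefSeq sequences of 3 members are shown. Agt and S100b had the largest coronal changes of the 10, and Slc1a3 had a small change. RefSeq windows were found for 9 members, with build GRCm38.p6, and each window holds the 250 bases before the start of a RefSeq transcript. Of the 11 windows of these 9 members 3 lay inside the gene's span, which were the window of Slc1a2 and 1 each of Aldoc and Fgfr3, and that of Aldh1l1 ran past the gene's start. Capitals mark motifs found on either strand, which did not overlap in the windows shown.
Agt: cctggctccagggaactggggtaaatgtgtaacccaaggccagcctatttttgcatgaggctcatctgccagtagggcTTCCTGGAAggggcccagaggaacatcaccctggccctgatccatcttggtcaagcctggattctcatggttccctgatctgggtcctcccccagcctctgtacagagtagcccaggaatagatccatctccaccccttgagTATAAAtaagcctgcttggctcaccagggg
S100b: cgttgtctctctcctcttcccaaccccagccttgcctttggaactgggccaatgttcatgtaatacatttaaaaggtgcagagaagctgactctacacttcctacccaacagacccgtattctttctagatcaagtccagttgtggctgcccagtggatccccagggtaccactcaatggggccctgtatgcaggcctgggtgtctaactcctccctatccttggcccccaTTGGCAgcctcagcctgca
Slc1a3: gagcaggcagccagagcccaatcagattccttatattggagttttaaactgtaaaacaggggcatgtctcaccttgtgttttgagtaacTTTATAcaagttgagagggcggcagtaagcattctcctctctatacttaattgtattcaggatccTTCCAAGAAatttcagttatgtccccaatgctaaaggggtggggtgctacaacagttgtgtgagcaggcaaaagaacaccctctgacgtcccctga
The Agt window lies at chr8:124569707-124569956 on the minus strand, the S100b window at chr10:76253586-76253835 on the plus strand and the Slc1a3 window at chr15:8710808-8711057 on the minus strand. Each of these 3 ends directly before the RefSeq start of its gene. Searched were TTGGCA, part of the palindromic site of the nuclear factor I proteins, TTCNNNGAA, the site of the STAT proteins, and TATAAA, the TATA box. Of the 32851 windows of 250 bases in the RefSeq table, 12.3% held the nuclear factor I motif, 7.02% the STAT site and 12.4% the TATA box. Agt held 1 STAT site and 1 TATA box, with TATAAA on the strand shown and near the end of the window. Slc1a3 held 1 STAT site and 1 match to the TATA motif on the other strand, printed as TTTATA and far from the end. S100b held 1 nuclear factor I motif. A link between these motifs and the coronal changes was not tested. The windows of Gfap, Aldh1l1, Slc1a2, Gja1 and Fgfr3 held none of these motifs. Of the Aldoc windows, 1 held a nuclear factor I motif and the other 2 STAT sites.

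The direction of each series was read from regional landmark genes. In the coronal series Hoxb5, Hoxa5 and Hoxc4, which mark the hindbrain and spinal cord end, were highest in fraction 1. The cerebellar gene Pcp2 was highest in fraction 3, the midbrain dopamine transporter gene Slc6a3 in fraction 5, Tcf7l2 of the thalamus and midbrain in fraction 6, and Drd1 of the striatum in fraction 8. The cortical gene Tbr1 was highest in fraction 9, and Tbx21, Eomes and Cdhr1 of the olfactory bulb in fraction 10. In the horizontal series Lhx2, a gene of the cortex and other telencephalon whose coronal peak was in fraction 5, was highest in fraction 1 and Tbr1 in fraction 2, and the hypothalamic genes Avp, Oxt and Pomc in fraction 6. In the sagittal series Tbr1 and Lhx2 were highest in fraction 1 and Oxt in fraction 4. Array quality differed along the series. Feature Extraction marked the slope of the spiked-in control RNA as out of range on 7 arrays, namely coronal fractions 1 and 2, horizontal fractions 1 to 3 and sagittal fractions 1 and 3, with slopes of 0.773 to 0.891 against 0.949 to 1.07 on the other 15.

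Levels are log2 processed intensities after subtraction of each array's 75th percentile, which is thus at 0, and 1 unit is a doubling of signal. They can be compared between fractions for 1 gene, and not between genes, because probes differ in brightness. A limma model of all 22 arrays gave each series its own straight and curved component along its slabs, called the linear and the quadratic term. The change given is the linear change from the start to the end of a series, with its standard error (SE). It passed the test where the Benjamini-Hochberg adjusted p over 39621 probes was under 0.05. The coronal and horizontal tests take both terms together, so a gene can pass through the shape of its curve. The scatter of single arrays around these curves was 0.18 (SD) for Aldoc, the smallest of the 10, and 0.58 for Agt, the largest.

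**Figure D1:**
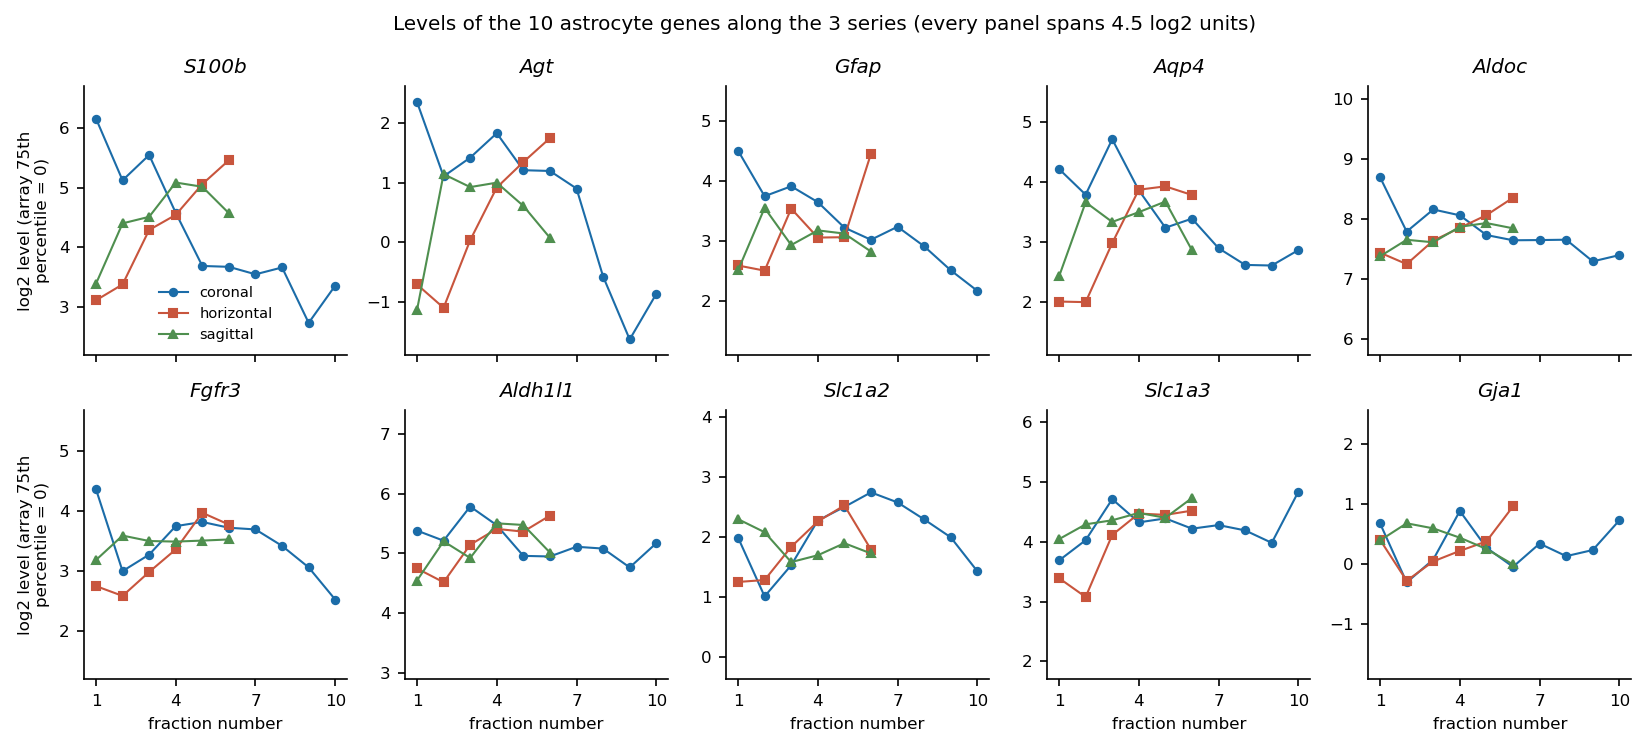
Log2 level (y axis, with the 75th percentile of each array at 0) against fraction number (x axis) for each of the 10 astrocyte genes, 1 point per array, with coronal fractions as circles, horizontal fractions as squares and sagittal fractions as triangles. S100b, Agt, Gfap, Aqp4 and Aldoc descended along the coronal series, Slc1a2 peaked in coronal fraction 6, and in the horizontal series all 10 genes were higher in fraction 5 than in fraction 2.

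Along the coronal series 5 of the 10 genes changed, and all 5 fell from the hindbrain end towards the olfactory end: Agt, S100b, Gfap, Aqp4 and Aldoc. Of all probes, 19.8% changed and 7.42% changed with a fall. The median end-to-end change of the 10 genes was -0.99 and that of all probes -0.12. None of the 10 rose past the threshold. The 5 others, Slc1a2, Slc1a3, Gja1, Fgfr3 and Aldh1l1, had end-to-end changes between -0.94 and 0.41.

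Agt encodes angiotensinogen, the precursor of the angiotensin peptides, which the brain makes mostly in astrocytes. Its level was 2.35 in coronal fraction 1, then 1.10, 1.42, 1.82, 1.21, 1.19 and 0.90 in fractions 2 to 7, and -0.57, -1.62 and -0.86 in fractions 8 to 10. Fractions 8 to 10, where Drd1, Tbr1 and the olfactory landmarks were highest, lay below all of fractions 1 to 7. The highest and lowest fractions differed 15.6-fold. The linear change was -3.43 ± 0.57 (SE), with an adjusted p of 0.00376 in limma.

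S100b encodes a calcium-binding protein of astrocytes, and oligodendrocytes also contain it. Its level was 6.15, 5.12, 5.54 and 4.58 in coronal fractions 1 to 4, and 3.69, 3.68, 3.55, 3.66, 2.74 and 3.36 in fractions 5 to 10. Fractions 1 to 4, which include the cerebellar landmarks, were all above fractions 5 to 10. The linear change was -2.94 ± 0.31 (SE), with an adjusted p of 0.000207.

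Gfap encodes the intermediate filament protein of astrocytes. Its level was 4.51 in coronal fraction 1 and 3.75, 3.91, 3.65, 3.22, 3.02, 3.24, 2.91, 2.51 and 2.17 in fractions 2 to 10. The lowest value was in the olfactory fraction and the highest in the hindbrain fraction, and the linear change was -2.03 ± 0.35 (SE, adjusted p = 0.00496 in limma). Of the filament genes listed beside it, Vim, Nes and Synm, 0 of 3 passed the coronal test by limma, with changes of -1.04, 0.17 and 0.50. Gfap had 3 probes with RefSeq identifiers, and the other two fell by 2.64 and 2.26 on the log2 scale.

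Aqp4, the water channel of astrocyte endfeet, had levels of 4.22, 3.79, 4.72 and 3.86 in coronal fractions 1 to 4 and 3.24, 3.39, 2.90, 2.62, 2.61 and 2.86 in fractions 5 to 10. Fraction 3, where the cerebellar landmarks Pcp2 and Barhl1 peaked, was the highest. The linear change was -1.85 ± 0.38 (SE), with an adjusted p of 0.0119. Aldoc, the brain form of the glycolytic enzyme aldolase, which Purkinje cells also make, was 8.70 in fraction 1, between 7.64 and 8.16 in fractions 2 to 8, and 7.29 and 7.40 in fractions 9 and 10. Its change was -1.05 ± 0.21 (SE, adjusted p = 0.00855 in limma), the smallest of the 5.

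Neither glutamate transporter of the 10 passed the coronal test with all arrays. Slc1a2, the main glutamate transporter of the forebrain (GLT-1), was 1.99, 1.01 and 1.53 in coronal fractions 1 to 3, 2.27, 2.50, 2.74, 2.58 and 2.29 in fractions 4 to 8, and 1.99 and 1.43 in fractions 9 and 10. Its fitted peak lay in fraction 6, the fitted curve spanned 1.16, and the adjusted p was 0.0700. Whether Slc1a2 passed rested on 1 fraction and on the settings: without coronal fraction 1 its change was 1.09 with an adjusted p of 0.000615, with in-range arrays alone 1.07 (0.0246), with normexp background correction 0.24 (0.0480), and among probes well above background in all 22 fractions 0.27 (0.0424). The other two Slc1a2 probes did not pass either, with adjusted p of 0.0907 and 0.0817. Slc1a3, the glutamate transporter (GLAST) that is abundant in the cerebellum, ranged from 3.69 in fraction 1 to 4.83 in fraction 10 with a change of 0.41 ± 0.32 (SE, adjusted p = 0.506 in limma). Without coronal fraction 10 the Slc1a3 change was -0.39, and without coronal fraction 2 the Slc1a2 change was -0.09, so their directions rested on 1 fraction.

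Gja1, the gap junction protein of astrocytes, ranged from -0.31 in coronal fraction 2 to 0.89 in fraction 4 with no run in either direction (0.18 ± 0.32, SE, adjusted p = 0.587 in limma, and -0.13 without fraction 2). Aldh1l1, a folate enzyme, ranged from 4.77 in fraction 9 to 5.78 in fraction 3 (-0.52 ± 0.26, SE, adjusted p = 0.253). Fgfr3, a receptor for fibroblast growth factors, was 4.36 in fraction 1, 2.99 in fraction 2, 3.82 in fraction 5 and 2.52 in fraction 10 (-0.94 ± 0.36, SE, adjusted p = 0.104). Without coronal fraction 1 the Fgfr3 change was -0.09 and passed (adjusted p = 0.00112), as it did without fraction 2 (-1.31, 0.0313) and with in-range arrays alone (-0.12, 0.0194). The highest and lowest coronal fractions differed 2.02-fold to 3.59-fold in these 5 genes, and 2.65-fold to 15.6-fold in the 5 that fell.

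Markers of other cell types moved along the same axis, where 19.8% of all probes passed and 7.42% passed with a negative linear term. All 7 myelinating oligodendrocyte markers passed, 6 with a negative linear term, with a fall by 7.76 for Mobp and by 3.15 for Cnp on the log2 scale, and Mbp had a linear change of 0.06. The summed level of the list ran from 8.70 in fraction 1 to 4.53 in fraction 9. Of 5 Purkinje cell markers 3 passed with a negative linear term, as did both Bergmann glia markers, Gdf10 and Hopx. Of 5 markers of neurons 4 passed with a positive linear term. All 7 myelin markers were detected in all 22 fractions. The part of these cells in the fall of the 5 astrocyte genes was not tested.

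The 5 coronal calls held in every fit that left out 1 fraction. With the slide as a block, 2 of the 10 genes passed, S100b (adjusted p = 0.00274 in limma) and Aldoc (0.00988), while Agt was at 0.117, Gfap at 0.0830 and Aqp4 at 0.0699. With the coronal arrays alone S100b and Gfap passed, and Agt (0.0576), Aqp4 (0.0810) and Aldoc (0.0979) did not. Aldoc also did not pass with arrays centred on their medians (0.124), with quantile normalization (0.0618) or without scaling (0.0574), and Aqp4 not with median centring (0.0652). Coronal fractions 1 and 3 to 8 shared a slide, and from fraction 1 to fraction 8 on that slide the level changed by -2.92 for Agt, -2.49 for S100b, -1.60 for Gfap, -1.60 for Aqp4 and -1.04 for Aldoc.

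**Figure D2:**
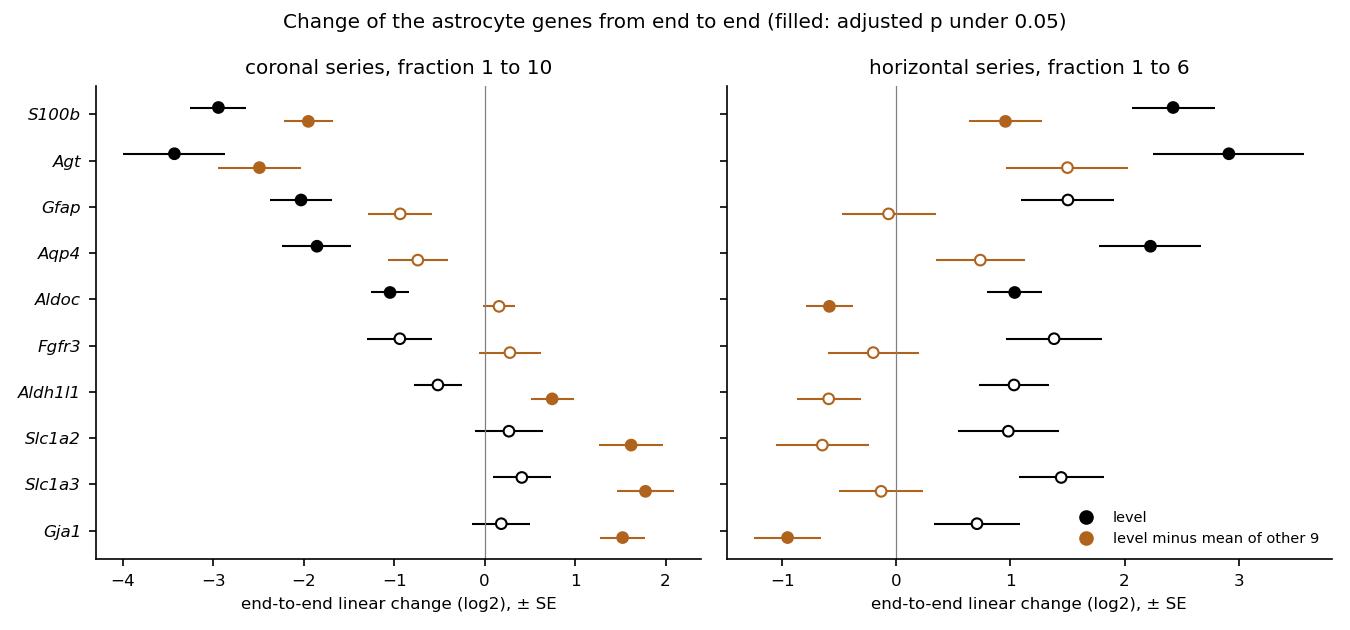
Linear change from the start to the end of the coronal series (left) and the horizontal series (right) in log2 units on the x axis, with bars of ± SE, for each of the 10 genes on the y axis. Black points are levels, brown points are levels minus the mean of the other 9 genes, and filled points passed an adjusted p of 0.05. The coronal levels of 5 genes lay at -1.05 or below and passed, while all 10 horizontal levels were above 0.

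Along the horizontal series all 10 astrocyte genes had a positive linear change, from the cortical fractions towards the hypothalamic fractions, and 4 of them passed the test: S100b, Aqp4, Agt and Aldoc. Of all probes 6.57% passed and 3.94% passed with a rise. The median change was 1.41 for the 10 genes and -0.20 for all probes.

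S100b was 3.12, 3.38, 4.29, 4.54, 5.06 and 5.46 in horizontal fractions 1 to 6, with every fraction above the one before it. Its change was 2.43 ± 0.36 (SE), with an adjusted p of 0.0107. Agt was -0.70, -1.09, 0.04, 0.92, 1.34 and 1.74, a 7.13-fold difference between fractions 2 and 6, and its change was 2.92 ± 0.66 (SE, adjusted p = 0.0426 in limma). Aqp4 was 2.00 and 1.99 in fractions 1 and 2, 2.98 in fraction 3 and 3.87, 3.93 and 3.78 in fractions 4 to 6, with a change of 2.23 ± 0.45 (SE, adjusted p = 0.0265 in limma). Fractions 4 to 6 thus formed a plateau for Aqp4. Aldoc was 7.44, 7.24, 7.64, 7.85, 8.06 and 8.35, a change of 1.04 ± 0.24 (SE, adjusted p = 0.0438 in limma). The S100b call held in 11 of 14 alternatives, the Aqp4 call in 10, the Agt call in 7 and the Aldoc call in 6. The 14 include the in-range fit, which bears on no horizontal call. They also include a fit with second probes, which S100b, Agt and Aldoc do not have. In the 22 fits without 1 fraction these calls held in 21, 18, 9 and 6. Only a horizontal fraction left out moves a horizontal change, and the other fits alter its test alone. Leaving out horizontal fraction 1 lost the S100b call, and fraction 1, 2, 4 or 5 the Aqp4 call. Leaving out any of horizontal fractions 1 to 6 lost the Agt and Aldoc calls. Agt did not pass with arrays centred on their medians (0.0519), without scaling (0.0583), without a filter on dim probes (0.0572) or with linear terms alone (0.0577).

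The 6 others had changes from 0.71 for Gja1 to 1.504 for Gfap and adjusted p of 0.0581 to 0.137. Some of these values rested on 1 fraction: without horizontal fraction 6 the change was 0.27 for Gfap, 1.89 for Slc1a2 and 2.16 for Fgfr3, and without horizontal fraction 1 it was 2.44 for Slc1a3, 1.23 for Gja1 and 1.59 for Aldh1l1, none past the threshold. Leaving out other single fractions took Gfap, Slc1a2, Slc1a3 and Fgfr3 past the threshold, with the lowest adjusted p at 0.0332, 0.0387, 0.0247 and 0.00912. Gfap was 2.59, 2.50, 3.54, 3.06, 3.06 and 4.46, with its highest value in the last fraction. Slc1a2 was 1.25, 1.28, 1.84, 2.26, 2.53 and 1.79, with its highest value in fraction 5. In 7 of the 10 genes, that is all but Gfap, Slc1a2 and Gja1, fractions 4 to 6 lay above fractions 1 to 3 without overlap, as did 17.4% of all probes.

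The horizontal rise and array quality ran together. Horizontal fractions 1 to 3 were the 3 with a spike-in slope out of range and fractions 4 to 6 the 3 in range, so that position and slope cannot be told apart in this series. With the spike-in signal as a covariate 0 of the 10 genes passed in limma, and 41 of all 39621 probes did. S100b then had a change of 2.01 (adjusted p = 0.153), Aqp4 of 1.03 (0.358), Aldoc of 0.66 (0.510) and Agt of 1.47 (0.666). With in-range arrays alone the horizontal series has 3 arrays left, which its own curve of 3 coefficients meets exactly. That fit bears on no horizontal call, though it is 1 of the 14 alternatives in the tallies, and its counts are in the closing section. Without the covariate 9 of the 10 genes were at an unadjusted p under 0.05, as were 15041 of all 39621 probes. Without horizontal fraction 1, 0 of 10 passed, and without fraction 2, 4 or 5, 1 of 10. The Aqp4 change was 3.37 without fraction 1 (adjusted p = 0.0713). Of the myelin markers 4 of 7 passed with a positive linear term, against 3.94% of all probes, with a summed level of 4.12 in fraction 1 and 8.04 in fraction 5. The summed level of the neuron markers ran the other way, from 9.70 in fraction 1 to 8.73 in fraction 6, with 0 of 5 past the test in limma. The lowest and highest levels were 4.84 in fraction 2 and 6.09 in fraction 6 for endothelium, 3.83 in fraction 3 and 6.24 in fraction 6 for meninges, and 3.51 in fraction 1 and 7.64 in fraction 4 for choroid plexus, with 0 of 3, 1 of 3 and 0 of 3 past the test. The part of these cells was not tested.

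Along the sagittal series, which runs across the brain from side to side, 0 of the 10 genes passed the linear term and 0 the quadratic term in limma, where 10% and 0.0303% of all probes did. At an unadjusted p under 0.05 there were 1 and 4 of the 10, and 9470 and 5859 of all 39621 probes. Fraction 1, which held the peaks of Tbr1 and Lhx2, was the lowest of the series for 8 of the 10 genes. Agt was -1.13 there and 1.14, 0.92, 1.00, 0.61 and 0.08 in fractions 2 to 6. S100b was 3.39 in fraction 1, then 4.40, 4.51, 5.08, 5.01 and 4.57 (linear change 1.20 ± 0.39, SE, adjusted p = 0.0643 in limma). Slc1a2 had its highest value, 2.30, in fraction 1, and 2.08, 1.58, 1.69, 1.90 and 1.72 in fractions 2 to 6. Its linear change was -0.50 ± 0.47 (SE, adjusted p = 0.529 in limma). The array of sagittal fraction 1 had a spike-in slope out of range.

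To separate what a gene did alone from what the astrocyte genes shared, the mean log2 level of the other 9 was subtracted from each gene on each array, which also removes any scaling of the array. In the coronal series 6 of the 10 then passed the test. Slc1a3 (1.78 ± 0.31, SE), Slc1a2 (1.62 ± 0.35), Gja1 (1.53 ± 0.25) and Aldh1l1 (0.75 ± 0.24) rose against the rest, with adjusted p of 0.000797, 0.000535, 0.000404 and 0.0378. Agt (-2.49 ± 0.46) and S100b (-1.95 ± 0.27) fell against the rest, with adjusted p of 0.000904 and 4.84e-05. Gfap, Aqp4, Aldoc and Fgfr3 did not pass, with changes of -0.93, -0.74, 0.16 and 0.28. Without 1 fraction these ran from -1.06 to -0.42, -1.26 to -0.48, 0.09 to 0.45 and 0.06 to 0.97. Aqp4 did pass without coronal fraction 1 (-1.26, adjusted p = 0.0146) and with in-range arrays alone (0.0244). Gfap did with its second probe (-1.62, 0.00314), with normexp (0.0466), with linear terms alone (0.0308), with the coronal arrays alone (0.0466) and without horizontal fraction 3, 5 or 6 (0.0410, 0.0429 and 0.0170). Of all probes, read against the mean of the 10 genes, 54.5% passed, 53% with a rise and 1.47% with a fall. Because each gene is set against the other 9, the 10 changes sum to 0 and rises among them come with falls, which is not so for the probes at large, and the counts are not read against these shares here or in the horizontal series. The shares do enter the adjustment, which is milder where many probes pass, and Aldh1l1 passed at an unadjusted p of 0.0197.

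Within these departures Slc1a2 had the lowest 3 values in coronal fractions 1 to 3 and its highest in fractions 6 and 9, and fraction 10 was again lower. Agt minus the mean of the other 9 was between -2.80 and -2.06 in fractions 1 to 7, and -4.12, -4.86 and -4.25 in fractions 8 to 10. S100b was highest against the rest in fractions 1 to 3. With the slide as a block 3 of the 10 passed, S100b, Slc1a2 and Slc1a3, while Agt (-1.85, adjusted p = 0.172), Gja1 (1.03, 0.207) and Aldh1l1 (0.73, 0.322) did not. Aldh1l1 did not pass in 6 of the 22 fits without 1 fraction, with an adjusted p of 0.198 without coronal fraction 10. Nor did it pass without a filter on dim probes (0.0610), with second probes of the other genes (0.0575) or with the coronal arrays alone (0.140). Without coronal fraction 1 the relative change was 0.33 for Aldh1l1 and 1.11 for Slc1a3, both past the threshold. The relative change of Fgfr3 passed without coronal fraction 1 (adjusted p = 0.00428) and with in-range arrays alone (1.60, 0.0125).

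**Figure D3:**
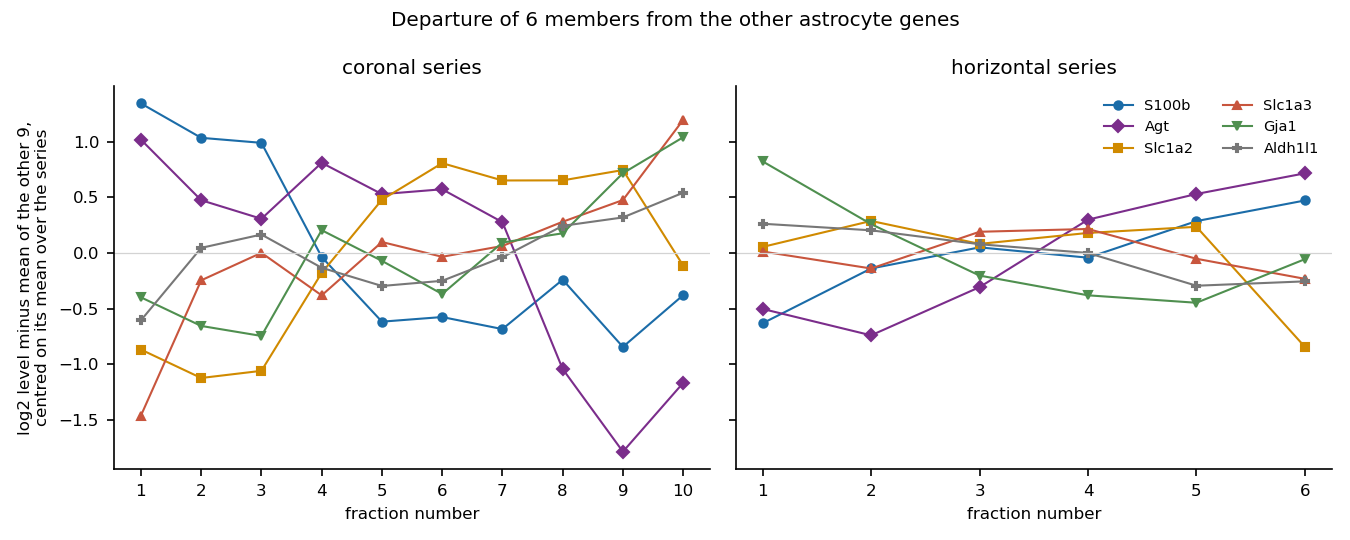
Log2 level minus the mean of the other 9 astrocyte genes, centred on its mean over the series (y axis), against fraction number (x axis), for S100b, Agt, Slc1a2, Slc1a3, Gja1 and Aldh1l1 in the coronal series (left) and the horizontal series (right), 1 point per array. In the coronal series S100b stood above its mean in fractions 1 to 3 and Agt below it in fractions 8 to 10, while Slc1a3 and Gja1 were highest in fraction 10.

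In the horizontal series 3 of the 10 genes departed from the other 9, where 75.3% of all probes did, 74.6% with a fall and 0.729% with a rise. Gja1 fell against the rest by 0.95 (adjusted p = 0.00776 in limma) and Aldoc by 0.59 (0.0337), and S100b rose by 0.96 ± 0.32 (SE, adjusted p = 0.0411). The Gja1 call was lost with the spike-in covariate (-0.81, adjusted p = 0.106) and without horizontal fraction 1 (-1.09, 0.151). Unadjusted, S100b was at 0.0296 and Aldoc at 0.0229, where Fgfr3 at 0.0175 did not pass in its level (adjusted p = 0.0896), so both calls rest on how many probes passed. The S100b call was lost in 6 of 14 alternatives, 1 of them the in-range fit, which bears on no horizontal call. It held in 14 of the 22 fits without 1 fraction, and was lost without horizontal fraction 1, 2, 5 or 6. Without horizontal fraction 1 the S100b change was 0.58 (adjusted p = 0.284). Agt did not pass, with an adjusted p of 0.0542, but did with quantile normalization (0.0413), with probes well above background in all 22 fractions (0.0401), with linear terms alone (0.0421), with the trended robust variance (0.0415), and without coronal fraction 9 or 10 or sagittal fraction 1 or 6 (0.0296, 0.0263, 0.0438 and 0.0473). The Aldoc call was lost in 6 of 14 alternatives, the in-range fit again among them, with -0.04 under quantile normalization (adjusted p = 0.642). It was also lost without horizontal fraction 1, 2, 4, 5 or 6, with -0.90 (0.0887) without fraction 1. Without horizontal fraction 1, 0 of the 10 passed. In the sagittal series 0 passed either term in limma, where 5.03% and 11.5% of all probes did. At an unadjusted p under 0.05 there were 2 and 2 of the 10, and 8442 and 11323 of all 39621 probes.

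Agt and Slc1a2 were the named pair of region-biased genes and were set against each other on each array. The size of their difference depends on the probes, and only its change from fraction to fraction carries meaning. Agt minus Slc1a2 was 0.36, 0.10, -0.11 and -0.45 in coronal fractions 1 to 4, -1.29, -1.55 and -1.68 in fractions 5 to 7, and -2.86, -3.61 and -2.29 in fractions 8 to 10. It fell in every step from fraction 1 to fraction 9 and rose in fraction 10. The linear change was -3.70 ± 0.51 (SE), with an adjusted p of 0.00169, and 37.3% of all probes changed against Slc1a2, 25.9% with a fall. In fits without 1 fraction it ranged from -5.15 to -3.21 and the largest adjusted p was 0.00564, while with the slide as a block it was -3.11 with an adjusted p of 0.0869, and with the coronal arrays alone the adjusted p was 0.0558.

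The other members were read in the same way. In the coronal series 8 of the 9 changed against Slc1a2, all but Slc1a3 (adjusted p = 0.197 in limma), where 37.3% of all probes did. The subtraction puts the curve of Slc1a2 itself, with its sign turned, into every probe, so a gene can pass through that curve alone. The count is thus not read as 8 separate departures, and Aldh1l1 passed in limma at an unadjusted p of 0.0144. All 8 had negative linear terms. For S100b the change was -3.21 ± 0.48 (SE) and for Fgfr3 -1.21 ± 0.23, while for Gja1 it was -0.09 ± 0.38 with a fitted curve that spanned 1.36.

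In the horizontal series Agt minus Slc1a2 was -1.95, -2.37, -1.80, -1.34, -1.18 and -0.05, and its change was 1.93 ± 0.60 (SE, adjusted p = 0.0564 in limma). Of all probes 8.99% passed and of the 9 members 0 in limma, with 4 of 9 at an unadjusted p under 0.05, as were 19416 of all 39620 probes. In the sagittal series Agt minus Slc1a2 was -3.43 in fraction 1, -0.94, -0.66, -0.70 and -1.29 in fractions 2 to 5 and -1.65 in fraction 6. Its quadratic term was -1.86 ± 0.48 (SE, adjusted p = 0.223 in limma), and 0.0126% of all probes passed that term against Slc1a2 and 0% the linear term. The quadratic term of Agt against Slc1a2 was -0.57 without sagittal fraction 1 and -3.63 without sagittal fraction 6.

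**Figure D4:**
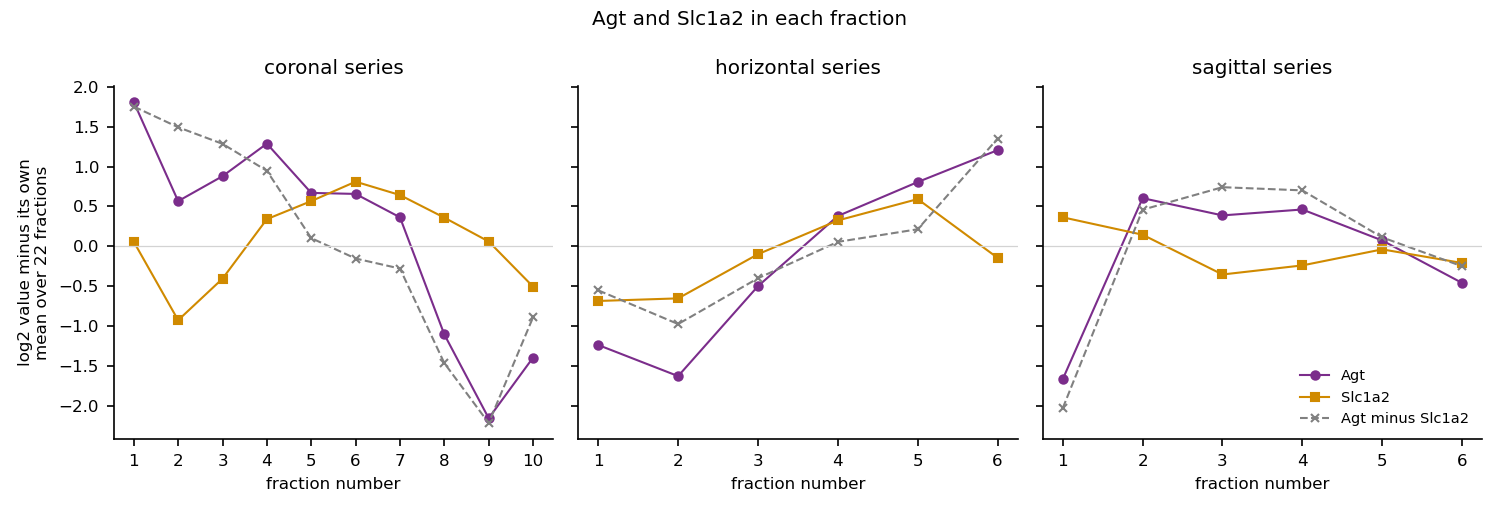
Log2 level of Agt (circles), of Slc1a2 (squares) and their log2 difference (crosses, dashed), each minus its own mean over the 22 fractions (y axis), against fraction number (x axis) in the 3 series, 1 point per array. Agt fell towards coronal fraction 9 while Slc1a2 peaked in coronal fraction 6, both were lower in horizontal fractions 1 and 2 than in fractions 4 and 5, and in sagittal fraction 1 Agt had its lowest and Slc1a2 its highest value of that series.

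Over the 22 fractions the members correlated in 45 pairs with a median Pearson r of 0.51, as a description of points that share 3 brains and their arrays. The lowest was -0.13, between Slc1a2 and S100b, and the highest 0.90, between S100b and Aldoc. Against the mean of the other 9, r was 0.91 for Aldoc, 0.90 for Agt and 0.89 for Aqp4, and 0.40 for Slc1a3, 0.35 for Gja1 and 0.18 for Slc1a2. Within the coronal series r against the other 9 was -0.09 for Slc1a2 and -0.26 for Slc1a3, and within the horizontal series 0.75 and 0.96. The order of the 10 genes by likeness thus differed between the series. Against the mean of the myelin markers, r was 0.95 for Aqp4, 0.91 for S100b and 0.86 for Agt, and 0.01 for Slc1a2. Against that of the neuron markers it was -0.88 for Aldh1l1, -0.80 for Aqp4, -0.77 for S100b and -0.63 for Agt, and 0.18 for Slc1a2.

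**Figure D5:**
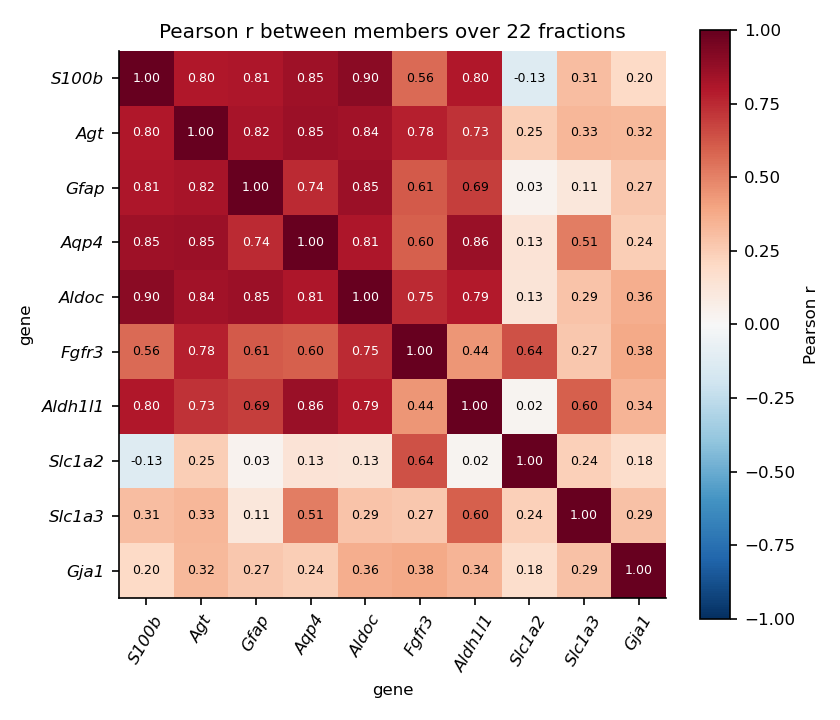
Pearson r over the 22 fractions between each pair of the 10 astrocyte genes, on a colour scale from -1 to 1 with the value printed in each cell. S100b, Agt, Gfap, Aqp4, Aldoc and Aldh1l1 had r of 0.69 or more with each other, and Slc1a2, Slc1a3 and Gja1 had r of 0.29 or less with each other.

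Among 13658 genes well above background on all 22 arrays, those with the pattern most like Agt were Cda (r = 0.95), Fhod1 (0.92), Arhgap12 (0.91), Igsf1 (0.91) and Tmcc3 (0.91). Those most like Slc1a2 were Prrt3 (0.91), Thy1 (0.91), Dlgap3 (0.90), Adora1 (0.90) and Rbfox1 (0.90). Thy1 is a surface protein of neurons, Dlgap3 a scaffold protein of excitatory synapses, Adora1 an adenosine receptor and Rbfox1 a splicing factor of neurons. No gene of the list of 10 was among the nearest 5 of either.

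A list of 47 other astrocyte genes was read in the same way. In the coronal series 19 of the 47 passed, 14 with a negative and 5 with a positive linear term, where 19.8% of all probes passed and 7.42% with a negative term. The 14 include Fabp7, a fatty acid binding protein, which passed through its curve (linear change -0.16 ± 0.31, SE, adjusted p = 0.0249 in limma) and had its highest level in fraction 10. Horizontally 20 passed, all with a positive linear term, where 6.57% of all probes passed and 3.94% with a positive term. The median change was -0.53 and 1.24. Among those that passed, the widest coronal curves belonged to Hopx (-3.20 ± 0.30, SE, adjusted p = 0.000135 in limma) and Gdf10 (-1.997 ± 0.56, adjusted p = 0.0124), which Bergmann glia of the cerebellum contain and which are also the Bergmann glia markers above, and to Ntsr2, a neurotensin receptor (-1.96 ± 0.33, adjusted p = 0.00371), while Chrdl1, a secreted antagonist of bone morphogenetic proteins, rose (2.34 ± 0.51, adjusted p = 0.0159). In the horizontal series the widest among those that passed were Grin2c (2.97 ± 0.51, adjusted p = 0.0116), a subunit of the NMDA receptor, Slc6a9 (2.68 ± 0.43, adjusted p = 0.0112), the glycine transporter, Slc4a4 (2.13 ± 0.41, adjusted p = 0.0115), a bicarbonate transporter, and Ntsr2 (2.50 ± 0.39, adjusted p = 0.0117). In the sagittal series 1 of the 47 passed the linear term, below the 10% of all probes, namely Hes5, a target of Notch signalling (1.31 ± 0.32, adjusted p = 0.0160), and 0 the quadratic term in limma.

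Of 10 genes of the renin-angiotensin system, which cuts and senses the product of Agt, 3 passed in the coronal series, near the 19.8% of all probes, and 1 in the horizontal series, against 6.57%. Mas1, the receptor for angiotensin 1-7, rose by 3.81 ± 0.98 (SE) and peaked in fraction 6, and Atp6ap2, the prorenin receptor, rose by 0.99 ± 0.24, with adjusted p of 0.00765 and 0.0221 in limma. Agtr2, a receptor for angiotensin II, also passed, but its probe exceeded background clearly in only 17 of the 22 fractions, so no size is given for its change. In the horizontal series Agtr1a, another receptor for angiotensin II, passed with 1.83 ± 0.43 (SE, adjusted p = 0.0448). The Mas1 probe clearly exceeded background in 21 and that of Agtr1a in 20 fractions, and the sizes of their changes are uncertain to that extent.

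Of 7 genes for the handling of glutamate and lactate, 4 passed in the coronal series, against 19.8% of all probes. Slc1a6, the glutamate transporter of Purkinje cells, fell by 2.37 ± 0.28 (SE, adjusted p = 0.000542 in limma). Glul, the glutamine synthetase of astrocytes, rose by 1.01 ± 0.23 (adjusted p = 0.0189), as did the neuronal transporter Slc1a1 by 0.86 ± 0.39 (0.0312) and the neutral amino acid transporter Slc1a4 by 1.63 ± 0.42 (0.0230). In the horizontal series, where 6.57% of all probes passed, 3 did, Slc1a6, Slc38a3 and Slc16a1, with changes of 1.58, 1.43 and 2.01. Of the relatives of Gja1 and Aqp4, 0 of 4 tested passed in either series in limma, and of the other receptors for fibroblast growth factors 0 of 3 in the coronal series and Fgfr1 in the horizontal series (1.67 ± 0.35, SE, adjusted p = 0.0312).

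Aldh1l2, the relative of Aldh1l1, passed the sagittal linear term (-1.55, adjusted p = 0.00415 in limma), and Aldoa, the relative of Aldoc made in most tissues, did not pass in any series. Of 3 oligodendrocyte precursor markers 2 passed with a negative linear term in the coronal and 2 with a positive one in the horizontal series, and of 3 inhibitory neuron markers 2 passed with a positive one in each. Of 4 microglia markers 0 passed in the coronal series in limma and 2 passed with a positive term in the horizontal series. The shares of all probes were 19.8% coronally and 6.57% horizontally. Their part in the astrocyte values was not tested.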

How the data were processed

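Total RNA of 22 brain fractions was hybridised to Agilent arrays, 1 array per fraction. Per the file headers, the authors extracted spots with Feature Extraction 10.10.1.1, which gives a background-subtracted processed intensity. A table of log2 values was deposited too, of which 99.9% lay within 0.02 of the values computed here. Control and outlier spots were left out, spots of a probe averaged, each array's 75th percentile subtracted on the log2 scale, and 55600 probes analysed. The 75th percentile lay between 260 and 604 and 29605 to 41965 probes were well above background. Tests used the 39621 probes well above background in at least 1 fraction of each series.

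Models were fitted in R 4.3.3 with limma 3.58.1 and tested on simulated data. Coronal and horizontal position were tested with F tests of the linear and quadratic terms, sagittal terms separately. The residual spread holds no spread between animals. The members and lists were chosen with earlier results of these data known. Named were all 10 members, per term up to 4 other astrocyte genes with the widest fitted curves among those that passed, and the 5 genes most correlated with Agt and with Slc1a2. Alternatives covered scaling, background correction (normexp on the median signals, since the files hold no mean signals), probe filters, slide, spike-in, curve, variance model, arrays fitted, probe choice, the deposited table and leaving out fractions. Symbols came from RefSeq (GRCm38.p6). Hbb-b1 found no probe by symbol. Some genes of the lists are not reported here. Python 3.11.15, pandas 2.3.3 and matplotlib 3.10.9 made tables and figures.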

Additional observations from a re-analysis of the deposited data

Results flagged for a closer look

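Of the 30 sets of fractions examined (10 genes in 3 series), 1 held a fraction that stood apart from the rest, where chance gives about 1 in 20. The level of Fgfr3 in sagittal fraction 1 was 3.18, and the next lowest sagittal fraction was at 3.49, a gap of 0.754 of the range of the series. Fractions are positions and not replicates, the array of that fraction had a spike-in slope out of range, and its part was not tested.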

How the results depend on the processing

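Under the other settings 139 of the values that answer a comparison were labelled as kept, 17 as weaker and 9 as stronger. Most of these values are counts of genes that passed, where kept means an equal or similar count, and single calls can still differ. A count has no direction, so a reversal could occur only for Agt against Slc1a2, where there were 0. Of the 10 genes, 5 passed coronally, and 3 did with arrays centred on their medians, 2 with the slide as a block, 2 with the coronal arrays alone, 7 with in-range arrays alone and 4 to 6 under the rest. Horizontally 4 passed, and 2 did with median centring, 2 with no scaling, 2 with no filter on dim probes, 1 with linear terms alone, and 0 with the spike-in covariate, with in-range arrays alone (3 horizontal arrays, too few to bear on a call) or with the horizontal arrays alone, while 5 did with the slide as a block and 3 to 6 under the rest. In the sagittal linear term 0 passed, and 1 (S100b) did with probes well above background in all 22 fractions, with the slide as a block and with the trended robust variance. Against the other 9, 6 passed coronally and 3 with the slide as a block. Horizontally 3 passed, and 1 did with no filter, 1 with the horizontal arrays alone and 0 with the spike-in covariate or in-range arrays. In the sagittal quadratic term 0 passed, and 2 did with normexp and 1 with probes well above background in all 22 fractions. Agt against Slc1a2 was -3.70 coronally, and with the slide as a block -3.11 and with the coronal arrays alone -3.70, neither past the threshold. Horizontally it was 1.93 and passed with normexp (1.64) and, at 1.93, with probes well above background in all 22 fractions, with the slide as a block and with the trended robust variance. The cause of these changes was not tested.

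Without 1 fraction the counts ran from 5 to 7 coronally, 0 to 7 horizontally and 0 to 1 in the sagittal linear term. The horizontal count was 0 without horizontal fraction 1, 1 without horizontal fraction 2, 4 or 5, 2 without horizontal fraction 6, coronal fractions 5 to 7 or sagittal fractions 3 to 6, and 7 without coronal fraction 1 or 2. Against the other 9 they ran from 5 to 8, 0 to 5 and, in the sagittal quadratic term, 0 to 1, with horizontal counts of 0 without horizontal fraction 1, 1 without horizontal fraction 2 or 5 and 5 without coronal fraction 1. Agt against Slc1a2 ran from -5.15 to -3.21 coronally, 1.65 to 2.34 horizontally, -1.57 to 1.501 in the sagittal linear term and -3.63 to -0.57 in the quadratic term.

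Over all probes 7850 passed coronally, and 1598 did with the slide as a block, 4283 with the spike-in covariate, 4133 with in-range arrays, 2821 with linear terms alone and 634 with the coronal arrays alone. Horizontally 2604 passed, and 1224 did with median centring, 5377 with the slide as a block, 41 with the covariate, 13 with in-range arrays, 206 with linear terms alone and 0 with the horizontal arrays alone, where 10614 were at an unadjusted p under 0.05 in limma. In the sagittal linear term 3968 passed, and 1640, 2243, 1 and 4 did with median centring, the covariate, in-range arrays and linear terms alone. Medians of the arrays spanned 0.60 log2 units. No paired analysis was possible because fraction numbers are positions along different axes of different mice. The sagittal quadratic term has no value with linear terms alone.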
